A study of Mus musculus with 12 samples.

Results

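The spectrin and ankyrin genes form the submembrane skeleton that lines the inner face of the plasma membrane. They were taken by name: the alpha spectrin Sptan1, the beta spectrins Sptb, Sptbn1 and Sptbn4, and the ankyrins Ank1, Ank2 and Ank3. All 7 symbols matched a gene identifier in the deposited tables, out of 43346 annotated genes.

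Spectrins are long, flexible rods in which an alpha and a beta chain pair side by side, and the pairs join end to end into tetramers that cross-link short actin filaments. Ankyrins bind beta spectrin and, through their repeats, hold ion channels, pumps and adhesion molecules in place. In neurons alpha-II spectrin (Sptan1) and beta-II spectrin (Sptbn1) make the periodic lattice of the axon shaft with ankyrin-B (Ank2), while beta-IV spectrin (Sptbn4) and ankyrin-G (Ank3) build the axon initial segment and the nodes of Ranvier. Ankyrin-R (Ank1) and beta-I spectrin (Sptb) were first known from the red cell membrane and are also made in some neurons.

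The data are RNA-seq libraries made by a Smart-seq protocol from Purkinje cells, big GABAergic neurons whose axons are the sole exit from the cerebellar cortex. A homogenate of 13 excised cells from a single mouse, a 14 month old male of strain B6CASTF1/J (a Castaneus by C57Bl6 hybrid), was split into 12 libraries of 1 cell equivalent each, with spike-in RNA added. There was 1 group, with no treatment, no mutant allele and no control, and libraries carry their technical replicate numbers, 1 to 6 and 8 to 13. Every p-value therefore measures the spread between splits of 1 pool, not between cells or animals, and levels cannot be assigned to a cell type within the pool: fewer cells of a type and less RNA per cell cannot be told apart.

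The libraries held 15167444 to 27806010 expected counts, and annotated genes took 85.4% to 95.2% of them. The Purkinje list (8 genes) was present at 50 or more counts in every library for all 8 genes and summed to 17716 to 32020 TPM, so the pool carried the defining markers of its label. RNA of other cell types was also present: the Bergmann glia and astrocyte list (8 genes) summed to 1337 to 3573 TPM, the granule cell list (8 genes) to 79.2 to 748.8 TPM and the oligodendrocyte list (8 genes) to 91.3 to 378.5 TPM. The erythroid list (10 genes) summed to 362 to 1551 TPM, nearly all of it globin transcripts. Its genes for red cell membrane proteins, Slc4a1 and Epb42, had no count in any library, nor did the transcription factor Klf1.

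The members are related in sequence, so how far their reads could be told apart bears on every value. In the coding sequences of the GENCODE M21 annotation, the beta spectrins were 58.9% to 65.7% identical over aligned bases and the ankyrins 60.5% to 66.5%. The longest run of bases shared without a mismatch was 30 bases between Sptb and Sptbn1, 27 between Sptbn1 and Sptbn4 and 23 between Ank2 and Ank3, and over the 21 pairs it ranged from 13 to 30 bases. The expected counts of all 7 genes were whole numbers in all 12 libraries (within 0.005), as they were for 74.9% of the 13896 annotated genes averaging at least 5 counts. Stretches of 90 coding bases in which Sptb and Sptbn1, the closest beta spectrins, and the 3 ankyrins are most alike are shown here, read 5′ to 3′ on the mRNA strand, to let the paralogs be compared where they are hardest to separate. Capitals mark positions at which the genes shown together are not all identical. Sptb at chr12:76632382-76632471 and Sptbn1 at chr11:30159296-30159385 (mm10, both on the minus strand and within 1 exon) differed at 11 of the 90 positions:
Sptb: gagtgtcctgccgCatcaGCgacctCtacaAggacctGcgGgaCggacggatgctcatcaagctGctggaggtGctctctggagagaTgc
Sptbn1: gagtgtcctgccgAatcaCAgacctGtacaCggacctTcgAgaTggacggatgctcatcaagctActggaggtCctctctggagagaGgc
The ankyrins differed at 25 of the 90 positions, in Ank1 at chr8:23084780-23085630 and Ank3 at chr10:69809232-69815746 on the plus strand and Ank2 at chr3:127057040-127077539 on the minus strand, in stretches that cross an exon junction, so that the genomic span (mm10) includes an intron:
Ank1: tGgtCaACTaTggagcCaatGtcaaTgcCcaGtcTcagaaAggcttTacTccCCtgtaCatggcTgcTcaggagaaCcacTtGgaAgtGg
Ank2: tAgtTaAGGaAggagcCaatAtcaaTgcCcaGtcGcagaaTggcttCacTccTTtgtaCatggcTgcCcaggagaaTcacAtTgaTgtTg
Ank3: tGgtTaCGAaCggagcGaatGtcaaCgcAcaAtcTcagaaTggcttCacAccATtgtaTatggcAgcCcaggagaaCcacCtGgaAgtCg

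Alpha-II spectrin had the highest mean level of the 4 spectrin genes described here. Sptan1 (ENSMUSG00000057738.9; mm10 chromosome 2, 29965560 to 30031451) encodes the alpha chain that pairs with every neuronal beta spectrin. Its level, in TPM (a share scaled by length, with spike-ins counted in the authors' total), was lowest at 29.5 in library 9, had a median of 169.5 and reached 401.2 in library 11, with a mean of 205.4 ± 120.9 (SD, n = 12). Library 2, at 383.8 TPM, stood close to library 11, and libraries 3, 4 and 9 were the only ones below 100 TPM. The counts behind these values ran from 3968 to 27998, and the gene ranked 564 by mean TPM among all annotated genes.

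The beta spectrins were spread over a wide range. Sptbn1 (ENSMUSG00000020315.14; chromosome 11, 30099395 to 30268175), the beta chain of the axon shaft and of most cell bodies, was lowest at 47.1 TPM in library 5, had a median of 144.4 and reached 237.7 TPM in library 13 (mean 141.9 ± 65.8, SD, n = 12). Libraries 2, 3, 5 and 8 lay below 90 TPM and the other 8 libraries above 130 TPM. Sptb (ENSMUSG00000021061.11; chromosome 12, 76580488 to 76710547), the beta chain of red cells and of some neurons, averaged 3.68 ± 5.10 TPM (SD, n = 12), with a median of 1.05 and a highest value of 16.4 TPM in library 12. It had 4251 counts in library 12, 1 count in library 10 and none in library 8, where the limit that a count of 0 allows (3 counts of all counts in annotated genes) is 0.137 counts per 1000000 (CPM).

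Sptbn4 (ENSMUSG00000011751.12; chromosome 7, 27356383 to 27447686), the beta chain of the axon initial segment and nodes, was the lowest member at 2.74 ± 5.83 TPM (SD, n = 12). It had 1441 counts in library 11 (19.6 TPM), 837 in library 2 (8.13 TPM), 270 in library 9 (3.34 TPM) and 143 in library 1 (1.73 TPM). Libraries 4 and 3 had 6 counts and 1 count, and the other 6 libraries had none, with limits of 0.124 to 0.219 CPM over the 12 libraries. Library 11 alone held 59.6% of the summed TPM of the gene, so its mean describes no single library. These limits and all counting intervals cover counting error only, because reads amplified by PCR with no molecular identifiers are not independent molecules.

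Ankyrin-B had the highest mean level of the 7 genes. Ank2 (ENSMUSG00000032826.12; chromosome 3, 126921612 to 127499350), which anchors ion transporters and links cargo to axonal transport, was lowest at 149.5 TPM in library 12, had a median of 296.7 and reached 712.9 TPM in library 13. Its mean was 319.3 ± 137.8 TPM (SD, n = 12) and it ranked 353 among all annotated genes. Library 13 stood apart above the others, of which library 4 was the highest at 373.5 TPM. Library 13 also had the highest summed glial list, at 3573 TPM, and the highest erythroid list, at 1551 TPM. It had the most annotated genes with a count of at least 1 (11581) and the lowest share of counts in spike-ins (4.78%) as well. The part of any of these in the Ank2 value was not tested.

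Ank3 (ENSMUSG00000069601.9; chromosome 10, 69398773 to 70027438), the master organiser of the axon initial segment, was lowest at 4.34 TPM in library 2, had a median of 37.1 and reached 116.2 TPM in library 1 (mean 42.7 ± 29.4, SD, n = 12). Ank1 (ENSMUSG00000031543.14; chromosome 8, 22974844 to 23150497), the ankyrin of red cells and of some neurons, was lowest at 0.24 TPM in library 11, had a median of 6.11 and reached 38.2 TPM in library 12 (mean 10.7 ± 10.8, SD, n = 12). In TPM, library 12 was thus highest for both Ank1 and Sptb and lowest for Ank2. In CPM it stayed so for Sptb (179.4) and Ank2 (690.4), but Ank1 was highest in library 6 (95.3, against 90.9 in library 12). Ank1 was present at 31 or more counts in all 12 libraries. CPM, which is not scaled by transcript length, put the lowest Ank3 in library 12 (32.1) and the highest in library 8 (354.2). In libraries 5 and 12, 97.9% and 99.6% of the Ank3 TPM were assigned to a model of 1275 bases.

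**Figure D1:**
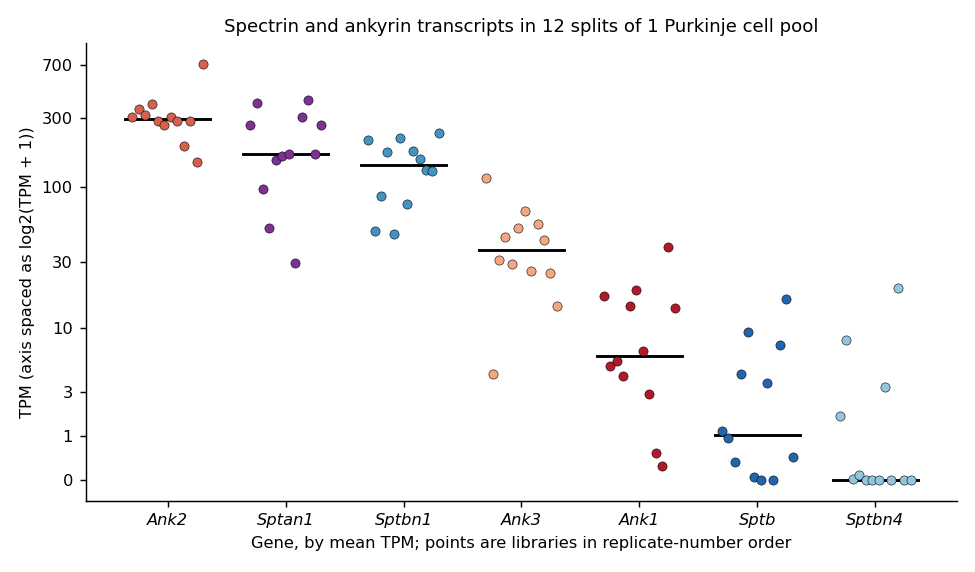
TPM of each gene in each of the 12 libraries, on an axis spaced as log2(TPM + 1), with genes ordered by mean TPM, points in replicate-number order and bars at the median. Ank2, Sptan1 and Sptbn1 lie above 29 TPM in every library, while Sptbn4 sits at or near 0 in most.

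The order of the levels, by mean TPM, was Ank2, Sptan1, Sptbn1, Ank3, Ank1, Sptb and Sptbn4. It was tested within libraries, as the difference of log2(TPM + 1) between genes, with an exact sign-flip permutation test, two-sided, over the 12 libraries and Benjamini-Hochberg adjustment over the 21 pairs. The smallest p this test can give is 0.000488. Of the 21 pairs, 19 passed an adjusted p of 0.05.

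Neighbours in the order did not all separate. Sptan1 averaged 7.37 and Sptbn1 6.98 on the log2(TPM + 1) scale, a difference of 0.39 ± 1.49 (SD, n = 12; higher in 9 of 12 libraries) that did not pass (exact sign-flip permutation test, adjusted p = 0.379). Sptb averaged 1.52 and Sptbn4 0.94, a difference of 0.58 ± 1.83 (SD, n = 12; higher in 7, lower in 3 and tied in the others) that did not pass either (exact sign-flip permutation test, adjusted p = 0.304). Sptan1 at 7.37 was lower than Ank2 at 8.23, by -0.86 ± 1.24 on the same scale in 8 of 12 libraries (exact sign-flip permutation test, adjusted p = 0.0340), whereas Sptbn1 at 6.98 was lower than Ank2 at 8.23 in 12 of 12, by -1.25 ± 0.90 (exact sign-flip permutation test, adjusted p = 0.000732). Sptbn1 stood above Ank3 (5.11) in 12 of 12 libraries, by 1.87 ± 1.09 (exact sign-flip permutation test, adjusted p = 0.000732), and Ank1 (2.93) below Ank3 in 10 of 12, by -2.18 ± 1.92 (exact sign-flip permutation test, adjusted p = 0.00449).

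Among the low genes, Sptb at 1.52 was below Ank1 at 2.93 by -1.41 ± 1.95, and Sptbn4 at 0.94 was below Ank1 by -1.99 ± 2.62, each lower in 9 of 12 libraries (exact sign-flip permutation test, adjusted p = 0.0340 for both). These and the difference between Sptan1 and Ank2 were the weakest that passed. Leaving out 1 library at a time, Sptan1 minus Ank2 no longer passed in 7 of 12 cases (without library 3, 4, 5, 6, 8, 9 or 13), Sptb minus Ank1 in 6 (without 1, 3, 6, 8, 12 or 13) and Sptbn4 minus Ank1 in 8 (without 1, 3, 4, 5, 6, 8, 12 or 13), with adjusted p-values of 0.0501 to 0.0680, and 16 to 19 pairs passed in all.

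**Figure D2:**
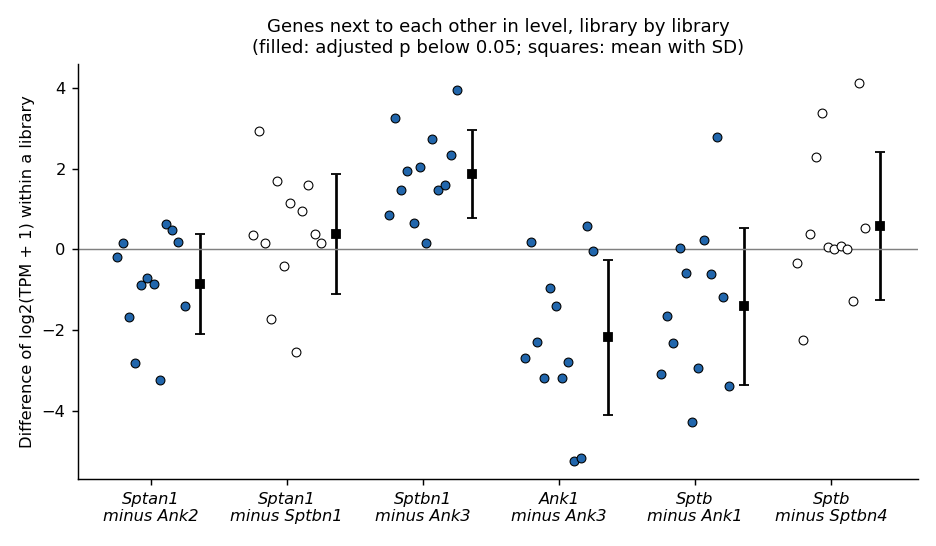
Differences of log2(TPM + 1) within each library between genes next to each other in level, first-named gene minus second, with filled points where the adjusted p was below 0.05 and squares for the mean with its SD over 12 libraries. All 12 points of Sptbn1 minus Ank3 lie above 0, while those of Sptan1 minus Sptbn1 and of Sptb minus Sptbn4 fall on both sides of it.

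The length to which TPM is scaled depends on the transcripts to which reads were assigned. On CPM per kilobase of each gene's longest deposited transcript, Sptan1 stood at 103 and Ank2 at 97.4, and their log2 difference was -0.03 (higher in 7 and lower in 5 of 12 libraries; exact sign-flip permutation test, adjusted p = 0.908). On that scale Sptan1 at 103 was above Sptbn1 at 51.7, with a log2 difference of 0.99 ± 1.22 (SD, n = 12; higher in 10 of 12 libraries; exact sign-flip permutation test, adjusted p = 0.0217), and Sptb was no longer separated from Ank1 (-0.76, adjusted p = 0.209).

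Detection followed abundance. An expected count of at least 1 in every library was reached by 5 members, Sptan1, Sptbn1, Ank1, Ank2 and Ank3, against 8.46% of all annotated genes, and 50 counts in every library by 4 of them, all but Ank1, against 3.72% of all genes. Genes of similar mean TPM give a closer background than all genes. They are not matched on counts, because TPM is scaled by length: Ank1, at a mean of 10.7 TPM, averaged 812 counts. Within 1.5-fold of the level of the member, a count in every library was reached by 98.8% of 322 genes for Ank2, 93.5% of 494 for Sptan1, 86.9% of 658 for Sptbn1, 51.4% of 1705 for Ank3 and 17.0% of 2502 for Ank1. For 50 counts in every library the shares were 87.9% for Ank2, 70.0% for Sptan1, 57.0% for Sptbn1 and 19.6% for Ank3. Detection of Ank2, Sptan1 and Sptbn1 was thus common to most genes at their level. Sptb reached 1 count in 11 libraries and Sptbn4 in 6.

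The splits differed from each other by far more than read sampling. When each gene was given 1 share of the reads in every library (chi-square test), all 7 members varied beyond Poisson sampling, as did 99.9% of the 13899 genes tested, with a chi-square per degree of freedom of 439 for Ank1 to 2749 for Sptan1. Set against genes of the same abundance, no member passed as more variable. In edgeR, 0 of 7 quasi-dispersions passed above the abundance trend (adjusted p of 0.773 to 1.00 by the quasi-likelihood F test with Benjamini-Hochberg adjustment), and 0 of 7 had an unadjusted p below 0.05, with 0.0144% of genes called and 0.684% at an unadjusted p below 0.05. So few of all genes passed that 0 of 7 does not set the members apart. With relative log expression size factors, and with library totals alone, edgeR also called 0 members.

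The coefficient of variation (CV, the SD over the mean) of TPM ran from 0.432 for Ank2 to 2.13 for Sptbn4. For each member it was below the median of genes within 1.5-fold of its mean TPM: 0.588 against 0.631 for Sptan1, 0.464 against 0.712 for Sptbn1 and 1.01 against 1.73 for Ank1. Of the genes at its level, 9.03% had a lower CV than Ank1, 10.5% a lower one than Ank3, 11.0% than Sptb and 12.0% than Sptbn1, while the shares were 29.2% for Ank2, 37.2% for Sptbn4 and 40.7% for Sptan1. Genes matched on TPM are not matched on counts. Against the edgeR trend, which is based on counts, the ratio of the quasi-dispersion was above 1 for Sptan1 (1.48), Sptbn4 (1.29) and Sptb (1.03). For the other members it ran from 0.243 (Ank1) to 0.709 (Sptbn1).

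**Figure D3:**
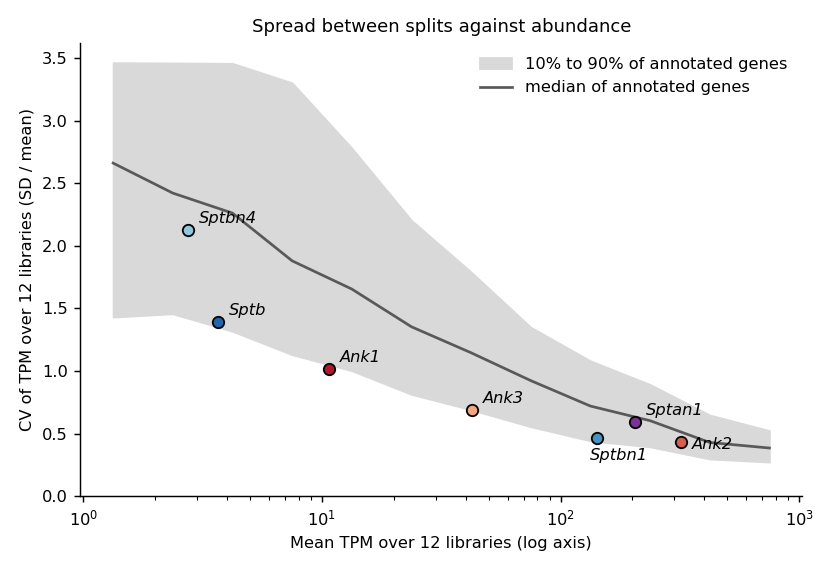
CV of TPM over the 12 libraries against mean TPM (log axis) for the 7 genes, with the median and the 10% to 90% range of annotated genes in bins of mean TPM. The CV falls with abundance for genes at large, and Ank1, Ank3, Sptb and Sptbn1 lie near the lower edge of the range.

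The members kept no common order of libraries. The 21 pairwise Spearman correlations of their TPM over the 12 libraries ran from -0.56 to 0.35 with a median of -0.06, and 8 were positive, which is a description of splits that share 1 pool. Sptan1 and Sptbn1, whose proteins pair in the tetramer, had rho = -0.06 over 12 libraries, with their highest values in library 11 for Sptan1 and library 13 for Sptbn1.

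For the genes at a mean of at least 10 TPM, genes with the most similar rank order of libraries were taken from 3181 genes with a count in every library. For Sptan1 these were Eif4h, a helper of translation initiation (rho = 0.86 over 12 libraries), Impdh2, an enzyme of guanine nucleotide synthesis (0.83), and Ssbp1, a mitochondrial DNA-binding protein (0.83). For Sptbn1 they were Cnrip1, a partner of the cannabinoid receptor (0.87), the transcription factor Klf13 (0.87) and mt-Co1, a mitochondrially encoded subunit of cytochrome oxidase (0.84). For Ank2 they were the phosphate exporter Xpr1 (0.86), the long noncoding RNA Meg3 (0.82) and the small GTPase Rab33b (0.81). For Ank3 they were Clvs1 (0.83), Dnajb14 (0.79) and the ribosomal protein gene Rps10 (0.78), and for Ank1 Tomm22, a receptor of mitochondrial protein import (0.94), and Mrpl15 (0.86). Each is the best of many candidates, and no other member was among them. Sptb and Sptbn4 could not be, since the genes searched had a mean of at least 10 TPM and a count in every library.

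The erythroid, glial, oligodendrocyte and granule cell lists were set against each member, since red cells, glia, myelinating cells and granule cells also make spectrins and ankyrins. Of the 28 relations between log2(TPM + 1) of a member and the log2 sum of a list, 0 passed an adjusted p of 0.05 by Pearson's r or by Spearman's rho (permutation test, 100000 resamples), and leaving out each library in turn also gave 0. Leaving out the 2 libraries with the most extreme list sums gave 1 that passed, Ank1 with the granule cell list (rho = -0.90 over 10 libraries, permutation p = 0.00072, adjusted p = 0.0202), without libraries 8 and 11, against rho = -0.36 over all 12 (permutation p = 0.257, adjusted p = 0.937). The strongest r over all 12 libraries was that of Ank2 with the Bergmann glia and astrocyte list (r = 0.64, permutation p = 0.0199, adjusted p = 0.558; rho = 0.37, permutation p = 0.237, adjusted p = 0.937; n = 12). It was 0.55 when the 2 libraries with the most extreme glial sums were left out (permutation p = 0.0975), 0.67 within blocks of replicate numbers and 0.43 without library 13. Ank1 and Sptb, the genes also made in red cells, had r = 0.13 and r = 0.04 with the erythroid list (permutation p = 0.692 and 0.914, adjusted p = 0.968 for both; n = 12), and rho = -0.06 and 0.07 (permutation p = 0.851 and 0.821, adjusted p = 0.995 for both).

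The deposited transcript tables divide each gene's reads among its annotated transcripts, and models under 3000 bases held a mean of 29.0% (Ank1) to 88.5% (Sptbn1) of the TPM of the 5 more abundant genes. The division is an estimate by the authors' program, and names and types from M21 are given only where the model had the same length as in the deposited tables (within 50 bases). A single transcript led in every library for 2 members, Sptbn1 and Ank2, against 12.5% of 4845 genes with at least 2 transcripts and a mean of at least 10 TPM.

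For Sptbn1 that transcript was Sptbn1-207, a model of 2956 bases and 2 exons annotated as a retained intron, which ends 1 base from the 3′ end of the gene. It took 46.0% of the gene's TPM in library 8 and 99.99% in library 12, with a mean of 86.4 ± 16.2% (SD, n = 12). Of its bases, 1364 (46.1%) lie in exons of other, protein-coding models of Sptbn1 and the rest do not. All retained-intron models together held 92.3 ± 9.20% of the TPM (SD, n = 12) and 83.1% of the counts. The long protein-coding models were low. Sptbn1-204, of 6524 bases and 31 exons, was the highest of them at 5.55 ± 8.91 TPM (SD, n = 12) and held 6.98% of the counts. Sptbn1-202, of 8238 bases, averaged 3.01 TPM, the longest model Sptbn1-203, of 9107 bases, 1.78 TPM, and Sptbn1-201, of 8461 bases, which spans the gene from end to end, 0.257 TPM.

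For Ank2 the leader was a model of 5208 bases (ENSMUST00000182078.3, whose M21 version is longer), with 28% of the TPM in library 13, 73.7% in library 10 and a mean of 50.9 ± 16.2% (SD, n = 12). The next, Ank2-219, is a single exon of 2491 bases annotated as a retained intron, with 526 of its bases in exons of protein-coding models. It stood at 54.3 to 110.7 TPM in libraries 1, 2, 3, 4, 8, 9 and 13, and at 0.07 to 1.49 TPM in libraries 5, 6, 10, 11 and 12. Those 5 libraries were also the lowest for the gene as a whole in TPM, a sum that includes Ank2-219 itself. There was no such gap: the highest of them, library 11, had 286.57 TPM of Ank2 and the next library, 9, had 286.75 TPM. By CPM they were not the 5 lowest, since library 9 (1182) lay below libraries 5 (1392), 6 (1439) and 11 (1243).

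Ankyrin-B has a giant neuronal form made by including a very long exon. The 6 Ank2 transcripts longer than 10000 bases held 3.62 ± 3.13% of the gene's TPM (SD, n = 12) and 12.0% of its counts, and reached 50 counts in 10 libraries. Most came from the 14308-base model (ENSMUST00000182704.3), which averaged 10.8 ± 10.0 TPM (SD, n = 12), was highest at 27.6 TPM in library 4 and lowest at 0.12 TPM in library 11. The leading Ank2 model has 5208 bases as deposited but 14305 in M21, so these shares depend on the deposited lengths and do not measure the giant form. No Ank3 transcript longer than 10000 bases is among the 44 in the tables, but this length limit does not settle whether sequence of a giant ankyrin-G form is. Ank3-244, a protein-coding model of 8612 bases and 9 exons, has only 911 bases in exons of the longest model, Ank3-231. It held 8.96% of the Ank3 counts and reached 50 counts in 3 libraries. Whether it carries sequence of the giant form was not tested.

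For Sptan1 the lead changed between libraries. A 1434-base model (ENSMUST00000129241.1, also longer in M21) led in 5 libraries by TPM, with a mean share of 40.9 ± 24.1% (SD, n = 12). It had no reads in library 9 and 77.6% of the TPM in library 11. The protein-coding Sptan1-201, of 7786 bases and 55 exons, held 38.6 ± 26% of the TPM (SD, n = 12), from 10.4% in library 8 to all of it in library 9, and led in 4 libraries. By expected count Sptan1-201 held 61.8% of the gene's reads and led in 9 libraries, and the short model 18.8% and led in none.

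Ank3 and Ank1 changed most between libraries. Ank3-211, a 1275-base model annotated as a retained intron, led in 5 libraries and held between 0% (library 11) and 99.6% (library 12) of the TPM, while Ank3-231, protein coding and of 9963 bases, led in 3 libraries by TPM and held 43.9% of the counts. The mean length of Ank3 weighted by these shares ran from 1304 to 9880 bases. For Ank1 the 1740-base Ank1-208 and the 8147-base Ank1-202, both protein coding, each led in 4 libraries, and their mean shares were 27.6 ± 40.6% and 37.7 ± 44.7% (SD, n = 12). All reads of Sptb were assigned to Sptb-201 (10394 bases), and all reads of Sptbn4 to the 4724-base Sptbn4-203, with none for Sptbn4-201 of 8747 bases.

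Overlapping genes could add reads where strand was not used in counting, which is not given in the sources used here. Gm8098, which lies at the 5′ end of Sptbn1 on the opposite strand, was counted in 5 libraries and averaged 7.31 TPM. The other overlapping genes present in the tables averaged at most 2.92 counts.

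The partners of these proteins were measured as 4 lists, and 0 of the 17, 18, 12 and 5 genes in them varied beyond the abundance trend (edgeR, adjusted p). Since only 0.0144% of the 13899 genes tested were called, a count of 0 does not set these lists apart. Of the 17 membrane skeleton genes, 10 had a mean of at least 10 TPM. The actin-capping proteins Capza2 (131.8 ± 119.8 TPM) and Capzb (117.2 ± 74.0) and the tropomyosin Tpm3 (74.1 ± 74.2) were highest, and the adducin Add2 (1.07 ± 3.41 TPM, SD, n = 12) lowest.

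Of the 18 membrane proteins that ankyrins bind, 15 had a mean of at least 10 TPM. The sodium pump subunit Atp1b1 (818.0 ± 218.4 TPM) and the calcium release channel Itpr1 (415.6 ± 64.9), which is also a Purkinje marker, were among the highest and were above Ank2 in mean TPM. The potassium channel subunit Kcnq3 was lowest (0.110 ± 0.372 TPM, SD, n = 12).

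The axon initial segment and node list holds 12 genes, Ank3 and Sptbn4 among them, and 7 had a mean of at least 10 TPM. The kinase genes Csnk2a1 (91.2 ± 38.0 TPM) and Camk2b (72.4 ± 35.7) and the adhesion gene Cntn1 (54.4 ± 34.3) were highest, and Trim46, which bundles microtubules in the initial segment, was lowest (1.27 ± 2.53 TPM, SD, n = 12). Of the 5 genes of proteases that cleave spectrin and their inhibitor, the small calpain subunit Capns1 was highest (172.7 ± 141.2 TPM), followed by Capn2 (45.7 ± 40.5), and the large subunit Capn1 was lowest (1.13 ± 3.76 TPM, SD, n = 12).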

How the data were processed

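Smart-seq libraries from 12 splits of 1 homogenate were measured. Reads were quantified on mm10 with GENCODE M4, per the text files deposited with the samples. Not given in the sources used here are the aligner, the quantification program and the strand. Per the file headers, the deposited tables hold expected counts (estimated counts of reads per gene or transcript), TPM that the authors scaled to sum to 1000000 per library, spike-ins included, and bounds of an interval on TPM whose level is not stated. Features with bare numeric identifiers, which carry no gene name, were left out.

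Gene symbols and positions were taken from GENCODE M21 (mm10), which matched 42462 of 43346 gene identifiers. Expected counts were rounded before count tests. Genes averaging at least 5 counts entered the chi-square test and the edgeR 4.0.16 quasi-likelihood fit (TMM factors, intercept only, upper-tail F test against the abundance trend), both adjusted by Benjamini-Hochberg over all 13899 genes. Pairs of members were compared on log2(TPM + 1), with a pseudocount of 1. Lists were summed in TPM. Coding sequences were aligned with MAFFT 7.526. The scripts' tests were checked on simulated data. Alternatives were other pseudocounts, scalings, filters, size factors, length scalings and leaving out each library. The members and lists were chosen with earlier results of these data known.

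The named genes were all members, the 3 highest and the lowest of each partner list, the 3 nearest patterns of each member with a mean of at least 10 TPM, and the 2 highest transcripts and the longest of each member. Some genes these rules take are not reported here. A few other transcripts, and the splits of single libraries, were named after their values were seen. Differences between members were paired within libraries. No pairing of libraries between groups was possible because all libraries belong to 1 group.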

Additional observations from a re-analysis of the deposited data

How the results depend on the processing

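None of the 21 differences of log2 level changed sign under any alternative. The number of members related to a marker list was 0 with all libraries and 1 when the 2 libraries with the most extreme list sums were left out: Ank1 with the granule cell list then had rho = -0.90 over 10 libraries (permutation p = 0.00072, adjusted p = 0.0202), against rho = -0.36 over 12, while r was -0.83 (permutation p = 0.00299, adjusted p = 0.0837), against 0.07. The cause was not tested. Members led by 1 transcript in every library numbered 2 by TPM and 1, Ank2, by expected count, since Sptbn1-207 then led in 11 libraries; counts are not divided by length. With a pseudocount of 10, Sptbn4 minus Ank1 was -0.64 and no longer passed (exact sign-flip permutation test, adjusted p = 0.0545), leaving 18 pairs. Scaling to the longest transcript, chosen after the data were seen, also left 18 and put the mean of Sptan1 (103) above that of Ank2 (97.4). Leaving out 1 library at a time gave 16 to 19 pairs, 5 to 6 members with a count in every library (6 without library 8), 5 to 7 members at the same rank (5 without library 12, when Sptb at 2.52 TPM was below Sptbn4 at 2.99 TPM), 7 members beyond Poisson sampling, 0 beyond the abundance trend, 0 related to a marker list and 2 with 1 leading transcript. Thinned to a hundredth of the shallowest library, 6 members varied beyond Poisson sampling, and Sptbn4 was too low to test. No pairing of libraries between groups was possible because all libraries belong to 1 group. A count of 0 allows 0.137 CPM for Sptb, in library 8, and 0.124 to 0.219 CPM for Sptbn4, in 6 libraries.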
